A study of Arabidopsis thaliana with 12 samples.

Results

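The genes described here are 10 photoprotection and xanthophyll cycle genes of Arabidopsis, taken by locus identifier out of the 33618 gene identifiers in the deposited table of transcript levels. They are PSBS (AT1G44575), VDE1 (AT1G08550), ZEP (AT5G67030), LCNP (AT3G47860), SOQ1 (AT1G56500), ELIP1 (AT3G22840), ELIP2 (AT4G14690), PTOX (AT4G22260), PGR5 (AT2G05620) and PGRL1A (AT4G22890). All 10 were above the filter on low values, and all 10 were tested. In the vtc2 rosettes 9 of the 10 had their lowest group mean in the deposited values. For ELIP1 this held only with vtc2 replicate 1 included. For ZEP it did not hold after rescaling to TPM or with quantile normalization. PSBS and PGR5 fell in vtc2 against wild type, 2 of 10 members where 2.23% of all tested genes fell. VDE1, whose enzyme takes its electrons from ascorbate, was higher in the libraries labelled OE than in vtc2. That is 1 of 10 members, where 2.94% of all tested genes rose. These 3 calls lay close to the threshold (limma adjusted p from 0.0422 to 0.0452). Of 24 alternative settings, the call held in 7 for PSBS, 11 for PGR5 and 11 for VDE1. No member was called in vtc4 against wild type, a comparison in which only 0.0347% of all tested genes were called.

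A leaf that absorbs more light than it can use sheds the excess as heat. The pH drop in the thylakoid lumen is sensed by the PsbS protein and activates violaxanthin de-epoxidase, which converts violaxanthin to zeaxanthin with ascorbate as reductant, while zeaxanthin epoxidase runs the cycle backwards. Cyclic electron flow around photosystem I through PGR5 and PGRL1 adds to that pH drop, and the plastid terminal oxidase offers electrons an exit to oxygen.

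Whole rosettes of 4 genotypes were sequenced: the wild type (WT), an ascorbate-deficient mutant of each of the genes VTC2 and VTC4, with the alleles vtc2-4 (here vtc2) and vtc4-4 (here vtc4), and OE, written in full as vtc2/OE-VTC2 L15. OE is a single line, L15, that carries the overexpression construct on top of the vtc2 mutation. These genes encode enzymes of the main route to ascorbate, GDP-L-galactose phosphorylase and L-galactose 1-phosphate phosphatase. Plants of all 4 groups were untreated and 4 weeks old, were grown in 8 h of light and 16 h of darkness at 22 °C and 300 µmol photons m-2 s-1, and were harvested 30 minutes into the light period. Each group had 3 libraries, each from a pool of 8 rosettes, so a library shows no single plant. The values are FPKM, fragment numbers scaled by transcript length and by library size. They compare genes per length, and keep no read totals, so the depth is unknown.

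The mutated genes checked the labels. Mean VTC2 levels were 819 FPKM (WT), 17.2 (vtc2), 783 (vtc4) and 383 (OE), and mean VTC4 levels were 28.3 FPKM (WT) and 0.373 (vtc4). VTC2 in the OE libraries is thus below WT, so each direction given for them is that of libraries with this label. Of 6 leaf mesophyll markers, 3 (RBCS1A, RCA and LHCB1.3) are listed at 0 in all 12 libraries, as failed estimates can be. The sum over the 6 ran from 10152.6 to 12000.5 FPKM in WT and from 9648.7 to 10891.2 in vtc2. In vtc4 it ran from 11434.8 to 12445.2, above all vtc2 libraries, and in OE from 10124.7 to 11237.9. Root markers summed to 11.1 to 17.3 FPKM in WT, 24.9 to 31.3 in vtc2, 22.5 to 31.0 in vtc4 and 18.7 to 21.3 in OE, with 1 of 6 averaging at least 1 FPKM over the 12 libraries. The 3 guard cell markers (FAMA, MYB60 and EPF1) summed to 21.6 to 23.0 in WT, 16.3 to 19.9 in vtc2, 20.4 to 21.5 in vtc4 and 19.2 to 20.6 in OE. EPF1, the lowest of them, averaged 0.968 FPKM in WT, 1.09 in vtc2, 1.38 in vtc4 and 0.860 in OE, so it was not lower in vtc2 than in WT. Phloem markers overlapped between all groups, and those of flower and seed summed to below 1 FPKM. In bulk rosettes fewer cells of a type and less RNA per cell cannot be told apart.

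The members' levels in WT covered a wide range. PSBS led with 1474 ± 157 FPKM (SD, n = 3), at the 99.6th percentile of WT means among tested genes. PGR5 followed with 525 ± 23.4, PGRL1A with 401 ± 50.9 and ZEP with 286 ± 14.9 FPKM, and none of these 4 overlapped with its neighbour in the order. SOQ1 (44.0 ± 4.15) and VDE1 (39.5 ± 4.27) overlapped, as did ELIP1 (27.8 ± 5.94), PTOX (27.8 ± 1.06) and ELIP2 (23.4 ± 5.09). LCNP was lowest with 15.5 ± 1.28 FPKM, at the 62.6th percentile. Transcripts of the epoxidase gene ZEP were thus several times more abundant per length than those of the de-epoxidase gene VDE1 in every library.

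**Figure D1:**
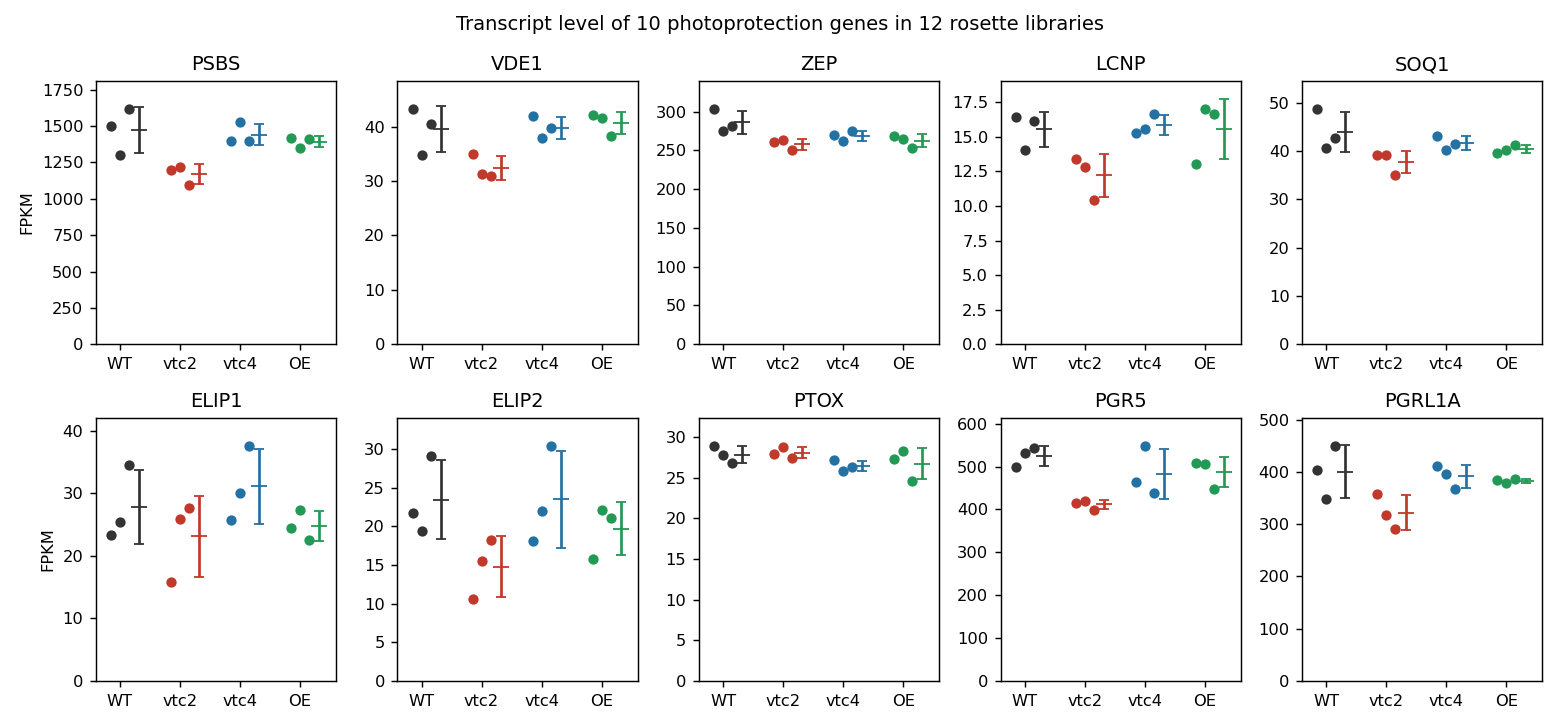
FPKM (linear axes from 0) of the 10 members in WT, vtc2, vtc4 and OE; points are libraries, replicates 1 to 3 from left to right, and the bar to their right is the mean ± SD (n = 3). For PSBS the vtc2 libraries lie between 1095 and 1219 FPKM, below all other libraries, while for PTOX all 4 groups lie between 24.6 and 28.9.

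The bases before the annotated start of 4 members are shown, PSBS and PGR5 because they fell in vtc2 and ELIP1 and ELIP2 because they are close relatives, compared below. Sequence and coordinates come from RefSeq's TAIR10.1 genome and annotation. The windows are chr1:16869971-16870220 (+ strand) for PSBS, chr2:2081860-2082109 (- strand) for PGR5, chr3:8085670-8085919 (- strand) for ELIP1 and chr4:8417992-8418241 (+ strand) for ELIP2, each 250 bases, written 5′ to 3′ along the gene's strand. Capitals mark matches to the motifs searched on both strands.
PSBS: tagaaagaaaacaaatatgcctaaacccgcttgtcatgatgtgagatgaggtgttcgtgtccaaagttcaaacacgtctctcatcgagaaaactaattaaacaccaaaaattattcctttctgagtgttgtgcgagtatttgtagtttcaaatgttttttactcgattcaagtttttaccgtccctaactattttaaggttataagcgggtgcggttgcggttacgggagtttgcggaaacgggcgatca
PGR5: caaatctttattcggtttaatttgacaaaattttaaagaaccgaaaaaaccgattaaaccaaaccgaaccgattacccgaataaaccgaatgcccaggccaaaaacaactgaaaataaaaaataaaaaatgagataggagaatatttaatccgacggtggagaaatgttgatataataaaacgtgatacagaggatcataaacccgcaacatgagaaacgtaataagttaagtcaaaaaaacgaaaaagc
ELIP1: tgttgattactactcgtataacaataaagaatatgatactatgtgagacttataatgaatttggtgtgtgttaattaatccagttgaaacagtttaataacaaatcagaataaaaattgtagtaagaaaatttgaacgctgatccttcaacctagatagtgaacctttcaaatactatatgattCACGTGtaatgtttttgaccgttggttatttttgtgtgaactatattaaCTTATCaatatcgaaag
ELIP2: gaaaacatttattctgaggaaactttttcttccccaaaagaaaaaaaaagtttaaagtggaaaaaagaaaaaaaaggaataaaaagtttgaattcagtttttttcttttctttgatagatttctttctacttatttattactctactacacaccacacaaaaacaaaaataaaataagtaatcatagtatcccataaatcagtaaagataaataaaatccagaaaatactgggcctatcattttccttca

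Among these 4 windows ELIP1 alone held a match: a G-box (CACGTG) starting 66 bases before the gene and, on the other strand, an I-box (GATAAG, here CTTATC) starting 17 bases before it. The G-box occurs in 6.49% and the I-box in 12.3% of the equally long windows of 27443 protein-coding genes, in either orientation. Of the other members, ZEP held an I-box and PGRL1A a CCA1 binding site (AAAAATCT), a motif in 6.69% of all windows. The evening element (AAAATATCT), present in 2.36% of all windows, was found in 0 of the 10. A match describes letters in this window only, and binding was not measured.

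PSBS, the pH sensor of the fast form of heat dissipation, spans chr1:16870221-16873427 with 5 exons in its longest transcript. It stood at 1501, 1305 and 1616 FPKM in WT replicates 1 to 3, at 1198, 1219 and 1095 in vtc2, at 1400, 1528 and 1397 in vtc4, and at 1416, 1350 and 1412 in OE. Every vtc2 library was below every other library, and WT, vtc4 and OE overlapped. Against WT, PSBS fell in vtc2 by 0.33 on the log2(FPKM + 1) scale (SE 0.078, 95% interval -0.50 to -0.16, limma adjusted p = 0.0452), or by 20.3%. Against vtc4 the difference was -0.30 (SE 0.078, adjusted p = 0.0719), and OE stood 0.25 above vtc2 (SE 0.078, adjusted p = 0.0803), neither of which passed the threshold of 0.05. The call against WT was close to that threshold: with 1 library left out at a time it held in 1 of 12 cases (without WT replicate 2, adjusted p = 0.0151), and the adjusted p rose to 0.170 without vtc2 replicate 3.

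VDE1, the ascorbate-dependent de-epoxidase, spans chr1:2706868-2709988 with 6 exons. Its values were 43.2, 34.8 and 40.5 FPKM in WT, 35.0, 31.3 and 30.9 in vtc2, 41.9, 37.8 and 39.8 in vtc4, and 42.2, 41.5 and 38.3 in OE. The vtc2 libraries lay below those of vtc4 and OE, while vtc2 replicate 1 lay just above WT replicate 2. In OE, VDE1 was higher than in vtc2 by 0.32 (log2 scale, SE 0.082, 95% interval 0.14 to 0.50, limma adjusted p = 0.0446), or by 24.8%. Its difference between vtc2 and WT was -0.28 (SE 0.082, adjusted p = 0.0928) and between vtc2 and vtc4 -0.29 (adjusted p = 0.0890). In the leave-one-out fits the OE call held in 3 of 12 cases (without WT replicate 1 or 2 or vtc2 replicate 1), and the adjusted p rose to 0.158 without OE replicate 1. Without WT replicate 2, VDE1 was also called against WT (adjusted p = 0.0350). Exons of VDE1 overlap SYP111 (AT1G08560), on the opposite strand, over 464 bases. SYP111 averaged 5.00 FPKM in WT, 5.68 in vtc2, 5.85 in vtc4 and 5.97 in OE, and whether the quantification used strand is not given in the sources used here.

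ZEP, which turns zeaxanthin back into violaxanthin, spans chr5:26753469-26757402 with 16 exons. It measured 303, 275 and 281 FPKM in WT, 261, 263 and 250 in vtc2, 269, 262 and 275 in vtc4, and 269, 265 and 253 in OE. The vtc2 and the OE libraries were both below all of WT, and overlapped with each other. The differences from WT were -0.15 for vtc2 (SE 0.053, limma adjusted p = 0.146) and -0.13 for OE (SE 0.053, adjusted p = 0.798), neither called. With a residual SD of 0.051 on the log2 scale, ZEP was among the steadiest of tested genes between replicates (2.5th percentile).

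Because de-epoxidation and epoxidation oppose each other, the ratio of VDE1 to ZEP FPKM was formed within each library, as a description with no test. It ran from 0.127 to 0.144 in WT, 0.119 to 0.134 in vtc2, 0.144 to 0.155 in vtc4 and 0.152 to 0.157 in OE. The OE and vtc4 libraries lay above all vtc2 and all WT libraries, and vtc2 overlapped with WT. The gap to WT was narrow for vtc4 replicate 2 (0.1443), next to WT replicate 3 (0.1439). These are transcript ratios, and pigments and enzyme activities were not analysed here.

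LCNP, a plastid lipocalin needed for a slow, sustained form of heat dissipation, and SOQ1, the thylakoid protein that holds this form in check, are opposing partners. LCNP (chr3:17656602-17658353, 5 exons) stood at 16.4, 14.1 and 16.1 FPKM in WT, 13.4, 12.8 and 10.4 in vtc2, 15.3, 15.6 and 16.6 in vtc4, and 13.0, 17.0 and 16.7 in OE. SOQ1 (chr1:21159736-21167341, 28 exons) stood at 48.7, 40.7 and 42.7 FPKM in WT, 39.1, 39.1 and 35.1 in vtc2, 43.2, 40.3 and 41.4 in vtc4, and 39.7, 40.2 and 41.2 in OE. For both, the vtc2 libraries lay below all WT and all vtc4 libraries, and for LCNP the OE replicate 1 reached into the vtc2 range. The differences between vtc2 and WT were -0.33 for LCNP (SE 0.11, limma adjusted p = 0.125) and -0.21 for SOQ1 (SE 0.070, adjusted p = 0.120), so neither passed. The LCNP to SOQ1 ratio overlapped between WT (0.338 to 0.377) and vtc2 (0.297 to 0.343), and the group means were 0.380 in vtc4 and 0.385 in OE.

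ELIP1 and ELIP2 encode early light-induced proteins, relatives of the antenna proteins that build up under light stress. ELIP1 (chr3:8084405-8085669) stood at 23.4, 25.5 and 34.6 FPKM in WT, 15.8, 26.0 and 27.7 in vtc2, 25.7, 30.1 and 37.6 in vtc4, and 24.5, 27.3 and 22.5 in OE. ELIP2 (chr4:8418242-8419325) stood at 21.7, 19.4 and 29.1 FPKM in WT, 10.5, 15.5 and 18.25 in vtc2, 18.1, 21.9 and 30.4 in vtc4, and 15.8, 22.2 and 21.1 in OE. Both were lowest in vtc2 replicate 1 and highest in vtc4 replicate 3. The vtc2 libraries lay below WT for ELIP2 and overlapped with WT for ELIP1. ELIP2 had the most negative vtc2 difference of the 10 members, -0.64 (SE 0.22, 95% interval -1.12 to -0.16), yet it was not called (limma adjusted p = 0.134). ELIP1 differed by -0.27 (SE 0.20, adjusted p = 0.488), and by -0.031 without vtc2 replicate 1. Without that library ELIP1 was also not lowest in vtc2, as OE against vtc2 turned from 0.13 to -0.11.

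The replicate spread of the ELIP genes was wide, with residual SDs of 0.33 for ELIP2 and 0.30 for ELIP1 on the log2 scale, at the 96.1st and 94.98th percentiles of tested genes. The ratio of ELIP1 to ELIP2 within a library ran from 1.497 to 1.67 in vtc2, above the 1.08 to 1.32 of WT and the 1.24 to 1.42 of vtc4 and overlapping with the 1.07 to 1.56 of OE; it is given with no test. The annotated ELIP1 and ELIP2 transcripts are 73.4% identical in alignment and share 0 stretches of 75 bases, the read length. For PGRL1A and its paralog PGRL1B the values are 78.2% and 0.

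PTOX, the plastid terminal oxidase that also serves carotenoid synthesis, did not share the low values in vtc2. It stood at 28.9, 27.8 and 26.8 FPKM in WT, 27.9, 28.8 and 27.4 in vtc2, 27.1, 25.8 and 26.4 in vtc4, and 27.2, 28.2 and 24.6 in OE. Its vtc2 mean was the highest of the 4 groups, the vtc2 libraries overlapped with WT, and they lay above all vtc4 libraries. The difference between vtc2 and WT was 0.01 (SE 0.061, 95% interval -0.12 to 0.15, limma adjusted p = 0.930), and between vtc2 and vtc4 it was 0.08 (adjusted p = 0.456). PTOX lies at chr4:11769668-11772599 with 9 exons.

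PGR5 and PGRL1A form the antimycin-sensitive route of cyclic electron flow. PGR5 (chr2:2080647-2081859, 3 exons) stood at 499, 532 and 544 FPKM in WT, 415, 420 and 399 in vtc2, 463, 548 and 438 in vtc4, and 508, 507 and 447 in OE. All vtc2 libraries were below all others. PGR5 fell in vtc2 against WT by 0.35 on the log2 scale (SE 0.081, 95% interval -0.53 to -0.17, limma adjusted p = 0.0422), or by 21.5%. It was 0.24 higher in OE than in vtc2 (SE 0.081, adjusted p = 0.101) and differed by -0.22 between vtc2 and vtc4 (adjusted p = 0.153), neither called. The call against WT held in 4 of 12 leave-one-out fits, each without a vtc4 or OE library, and the adjusted p rose to 0.149 without vtc2 replicate 3.

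PGRL1A (chr4:12006986-12009536, 10 exons) stood at 404, 348 and 450 FPKM in WT, 358, 318 and 290 in vtc2, 411, 397 and 368 in vtc4, and 384, 379 and 386 in OE. The vtc2 libraries lay below those of vtc4 and OE, and vtc2 replicate 1 lay above WT replicate 2. The difference between vtc2 and WT was -0.31 (SE 0.093, limma adjusted p = 0.0928). It passed the threshold without WT replicate 2 (adjusted p = 0.0338) and without vtc2 replicate 1 (adjusted p = 0.0430). The PGRL1A to PGR5 ratio overlapped between all groups, with means from 0.764 in WT to 0.818 in vtc4.

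**Figure D2:**
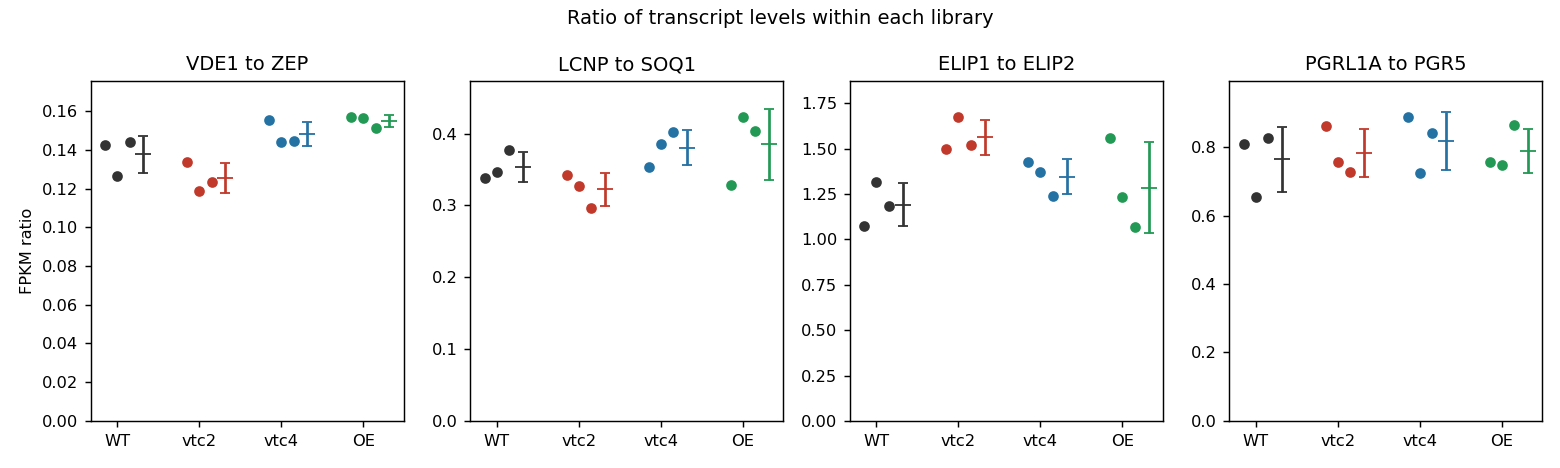
Ratio of FPKM within each library for 4 pairs of members with opposing or joint roles; points are libraries, replicates 1 to 3 from left to right, and the bar is the mean ± SD (n = 3). VDE1 to ZEP has its highest group mean in OE (libraries 0.152 to 0.157), and ELIP1 to ELIP2 lies above WT in all 3 vtc2 libraries.

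Set together for vtc2 against WT, 2 of the 10 members fell and 0 rose, where 2.23% of all 17290 tested genes fell and 0.798% rose. That split over all genes depends on scaling, with 26.4% of the called genes higher here and 57.6% after rescaling to TPM. Groups did not overlap, with vtc2 below WT, for 6 of the 10 (PSBS, ZEP, ELIP2, LCNP, SOQ1 and PGR5), against 12.6% of all tested genes. The log2 fold change was negative for 9 of 10 members, against 49.6% of tested genes, and the members' median was -0.29, against 0.0018 for all tested genes. The negative sign was not particular to the members. It held for 11 of 11 other cyclic electron flow genes, 8 of 8 quenching regulators (median -0.16) and 6 of 6 antenna-like genes (-0.24). It also held for 8 of 8 photosystem II repair genes (-0.19), 32 of 34 nuclear photosystem and antenna genes and 11 of 14 carotenoid genes. After rescaling to TPM the members' median was -0.21 while that of all tested genes moved to 0.081, and with quantile normalization it was -0.20. The sign stayed negative for 9 members under both. WT replicate 2 was the lowest WT library for 7 of the 10 members and vtc2 replicate 3 the lowest vtc2 library for 8. Without WT replicate 2, 3 members were called (PSBS, VDE1 and PGRL1A), and 0 were without WT replicate 1 or 3, vtc2 replicate 2 or 3, vtc4 replicate 1 or OE replicate 1.

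**Figure D3:**
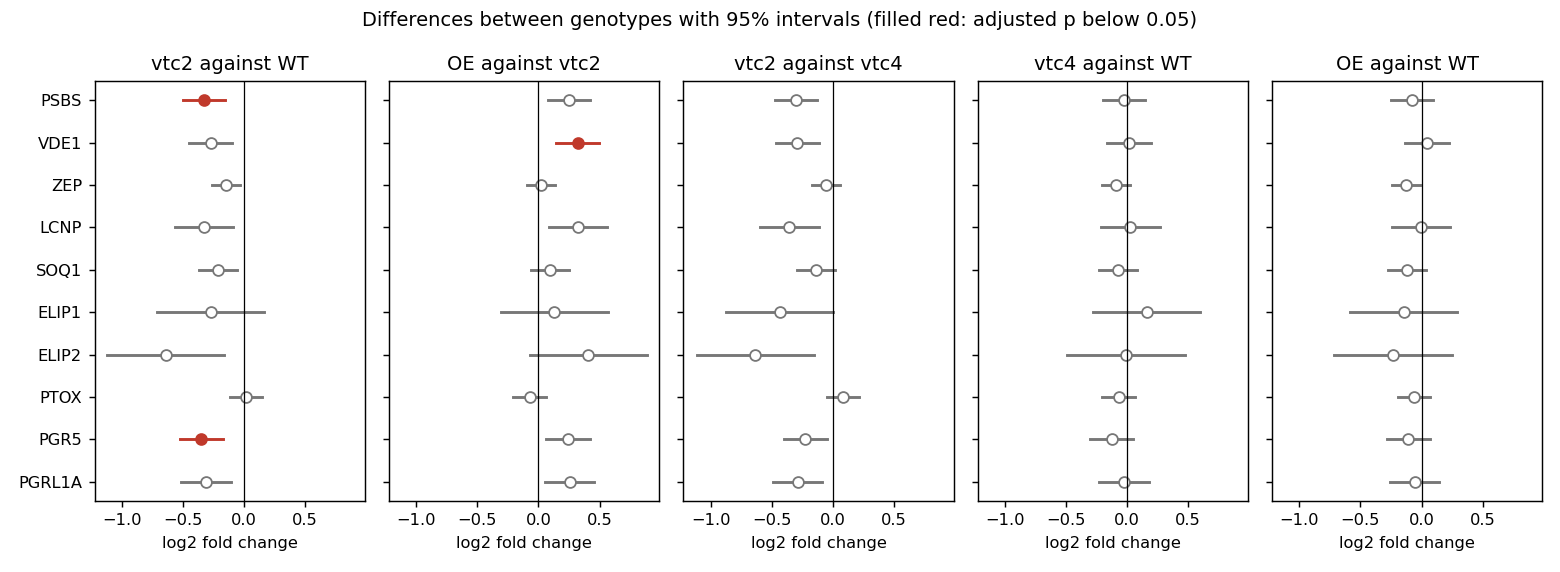
Log2 fold change (points) with 95% intervals (lines) of the 10 members in 5 comparisons, from limma on log2(FPKM + 1). Filled red marks adjusted p below 0.05: PSBS and PGR5 in vtc2 against WT and VDE1 in OE against vtc2; in the vtc4 and OE comparisons with WT the values lie between -0.23 and 0.16.

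In OE against vtc2, 1 member rose (VDE1) and 0 fell, where 2.94% of tested genes rose and 2.2% fell (57.2% of the called genes higher, and 37.4% after rescaling to TPM). The groups did not overlap, with OE above vtc2, for PSBS, VDE1, SOQ1, PGR5 and PGRL1A, which is 5 of 10 against 14.3% of tested genes. The fold change was positive for 9 of 10 members with a median of 0.25, against -0.0022 for all tested genes. After rescaling to TPM 8 were positive with a median of 0.19, and with quantile normalization 8 with 0.12.

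The comparisons of vtc2 with WT, OE and vtc4 all use the same vtc2 libraries, so their values are set side by side and not counted as separate evidence. In vtc2 against vtc4, 0 members were called, against 1.36% of tested genes (33.9% of them higher, and 63.3% after rescaling to TPM), and 6 had an unadjusted limma p under 0.05. The vtc2 libraries lay below vtc4 without overlap for PSBS, VDE1, LCNP, SOQ1, PGR5 and PGRL1A, 6 of 10 against 13.7% of tested genes, and above it for PTOX, 1 of 10 against 13.9%. The median was -0.29. With limma's library weights 2 members, PSBS and VDE1, were called.

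In vtc4 against WT, 0 of 10 members were called by limma, against 0.0347% of tested genes, and 0 had an unadjusted p under 0.05. The fold changes ran from -0.13 for PGR5 (95% interval -0.30 to 0.05) to 0.16 for ELIP1 (95% interval -0.28 to 0.60), with a median of -0.027, which turned to 0.0077 with quantile normalization. Groups did not overlap for 0 members in either direction, against 5.23% of tested genes with vtc4 lower and 5.14% with vtc4 higher. For PSBS the 95% interval was -0.20 to 0.14.

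In OE against WT, 0 of 10 were called, against 0.0174% of tested genes, and 1, ZEP, had an unadjusted limma p under 0.05 (adjusted p = 0.798). ZEP was also the 1 member without overlap, with OE lower, against 5.49% of tested genes. The fold changes ran from -0.23 for ELIP2 to 0.05 for VDE1, with a median of -0.093. A missed threshold does not show that the groups were alike, and the ELIP2 interval, for example, reached from -0.72 to 0.26.

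Neighbouring pathways gave context for the vtc2 values. Of 11 other cyclic electron flow genes, 6 fell in vtc2 against WT and 0 rose, with a median of -0.27. Among them, NDHN fell from 82.3 ± 7.07 to 62.8 ± 3.67 FPKM (log2 fold change -0.38, limma adjusted p = 0.0177), NDHL from 354 ± 29.3 to 272 ± 17.8 (-0.38, adjusted p = 0.0277), and PNSB2 and PNSL1 by 0.26 and 0.30 on the log2 scale. These encode subunits of the chloroplast NDH complex, the second route of cyclic flow. NDHL and NDHN rose in OE against vtc2 (0.31 and 0.36, adjusted p = 0.0466 and 0.0190). NDHN fell in vtc2 also against vtc4 (-0.43), as did PNSB3 (-0.31) (named after its values were seen), in a comparison where 0.902% of all tested genes fell.

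Of 14 carotenoid and xanthophyll synthesis genes, 2 fell in vtc2 and 0 rose (median -0.13), and both are beta-carotene hydroxylases, which make zeaxanthin from beta-carotene. BCH1 went from 87.7 ± 11.9 to 65.4 ± 3.24 FPKM (log2 fold change -0.41, limma adjusted p = 0.0422) and BCH2 from 75.6 ± 5.92 to 56.6 ± 2.72 (-0.41, adjusted p = 0.0310). BCH2 rose in OE against vtc2 by 0.41 (adjusted p = 0.0250), and BCH1 stood 0.23 higher without passing (adjusted p = 0.171). After rescaling to TPM the list's median in vtc2 was -0.046, with 9 of 14 genes negative instead of 11.

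Smaller numbers fell in the other photosynthetic lists in vtc2 against WT, and 0 rose. The kinase gene STN8, whose product phosphorylates the photosystem II core, was 1 of 8 regulators of quenching and state transitions (-0.41, limma adjusted p = 0.0351). OHP1, a one-helix relative of the antenna proteins, was 1 of 6 other antenna-like genes (-0.34, adjusted p = 0.0225), and AT5G07020 1 of 8 in the photosystem II repair list (-0.32, adjusted p = 0.0261). AT5G07020 fell against vtc4 as well (-0.32, adjusted p = 0.0437). Of 34 tested nuclear photosystem and antenna genes, PSAK of photosystem I (-0.34, adjusted p = 0.0449) and PSBR of photosystem II (-0.29, adjusted p = 0.0483) fell. That list's median was -0.17 and shrank to -0.014 with quantile normalization. LHCB1.3, the remaining gene of 35, is listed at 0 throughout. PSAK rose in OE against vtc2 (0.33, adjusted p = 0.0351), and none of these lists held a called gene in vtc4 or OE against WT. The lists and the members were measured in the same libraries, and no test of a difference between them was made.

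**Figure D4:**
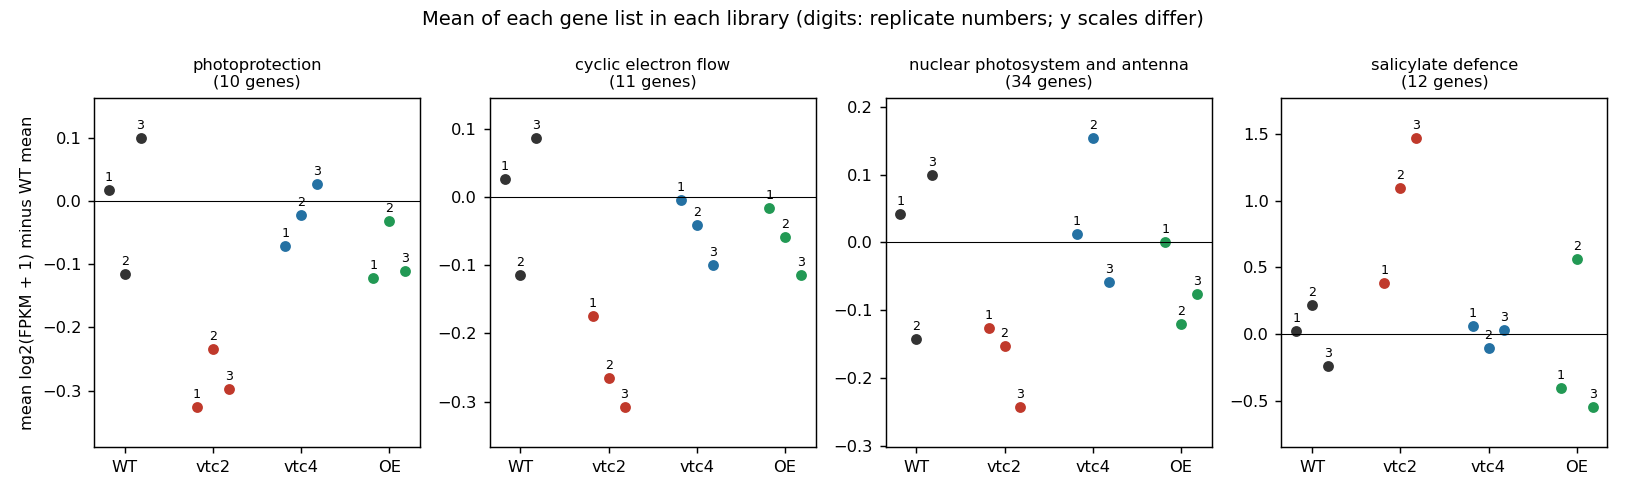
Mean log2(FPKM + 1) over each gene list in each library, relative to the mean of the WT libraries; digits are replicate numbers and the vertical scales differ between panels. The photoprotection mean lies at -0.33, -0.23 and -0.30 for vtc2 and at -0.12 to 0.10 for all other libraries, while the salicylate list is highest in vtc2 replicates 2 and 3.

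The members' mean stood at 0.016, -0.12 and 0.099 in the WT libraries, at -0.33, -0.23 and -0.30 in vtc2, at -0.071, -0.023 and 0.027 in vtc4 and at -0.12, -0.032 and -0.11 in OE (log2 scale, relative to WT). Other transcripts moved in the same libraries. Of 12 salicylate defence genes 3 rose in vtc2 against WT and 0 fell (median 0.87): PR5, the salicylate hydroxylase gene DMR6 and AED1. Their list mean came to 0.38, 1.096 and 1.47 for vtc2, -0.24 to 0.22 in WT, -0.11 to 0.061 in vtc4 and -0.41, 0.57 and -0.55 in OE. In OE against vtc2 5 salicylate genes fell (PR5, DMR6, AED1, the salicylate synthesis gene ICS1, and SARD1, the last named after its values were seen), and in vtc2 against vtc4, where 0.463% of tested genes rose, PR5 and ICS1 rose. Root marker sums were also higher and guard cell marker sums lower in vtc2 than in WT, and likewise in vtc4 and OE, as given above. The part of defence genes and of marker transcripts in the members' values was not tested.

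Harvest fell close to dawn, when clock genes of the morning phase are high. Of 8 tested clock genes of 9 listed, CCA1, a morning transcription factor, fell in vtc2 against WT (log2 fold change -0.24, limma adjusted p = 0.0266) and rose in OE against vtc2 (0.21, adjusted p = 0.0361). For the clock list, means of -0.20, -0.086 and 0.028 (vtc2) overlapped with -0.025, 0.029 and -0.0031 (WT). Its part in the members' values was not tested.

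The tested genes whose profile over the 12 libraries lay closest to that of a called member were found by the root mean square difference of centred log2 values. For PSBS they were AT5G14910 (0.039), PSRP4 (0.040) and AT5G07020 (0.041), where the median over 17289 genes was 0.195. For PGR5 they were AT2G01755 (0.054), AT3G45210 (0.055) and PTAC7 (0.059). For VDE1 they were PGK1 (0.049), DYW1 (0.052) and SBPASE (0.054). PSRP4 averaged 425 FPKM in WT, 342 in vtc2, 423 in vtc4 and 402 in OE, the same order as PSBS, and PGK1, a phosphoglycerate kinase gene, averaged 1091, 886, 1125 and 1140. Both genes were chosen for a profile close to the member's, so a like order follows from the choice.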

How the data were processed

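The authors deposited 1 table of FPKM values with a column for each of the 12 libraries, made from poly(A) RNA of whole rosettes with a stranded kit and paired reads of 75 bases, per the labels' protocols. The submitters' processing notes name Trimmomatic 0.36, HISAT2 2.1.0, Cuffdiff, Cufflinks 2.2.1 and the genome build TAIR10. Normalization options, gene models and strand setting are not given in the sources used here.

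Column names gave each library's group, and libraries of a group are independent pools. A gene was tested if 3 or more libraries reached an FPKM of 1, which held for 17290 of 33618. limma 3.58.1 in R 4.3.3 was applied to log2(FPKM + 1) of all 12 libraries, with genotype as the only factor and a mean-variance trend. Fold changes on that scale understate changes of low genes. Tests were two-sided, and a gene counts as called where its p, adjusted by Benjamini-Hochberg over all tested genes of a comparison, is below 0.05; there were 5 comparisons. The step was tested on simulated data. FPKM sums ran from 684606 to 757484. The FPKM steps of 1 fragment were estimated at 0.913 to 1.01 times those of WT replicate 1. Only steps close to those of WT replicate 1 were searched, so this range cannot show whether depth was similar. The tests were repeated under 24 other settings, 12 of which left out 1 library each.

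The 10 members and 8 context lists of 103 genes were chosen with earlier results of these data known, and lists are described by counts and medians only. Named beside the members were VTC2 and VTC4, up to 4 called genes of each list by smallest adjusted p, and the 3 nearest profiles of each called member. Symbols, coordinates and sequence came from RefSeq's TAIR10.1, which 32217 identifiers matched. The deposited table holds no coordinates.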

Additional observations from a re-analysis of the deposited data

How the results depend on the processing

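Every member call lay close to the threshold. In vtc2 against WT, where 2 members were called, the count was 0 without a filter, with quantile normalization, with only the groups compared and without the trend, and 1 after rescaling to TPM (PSBS) and with library weights (PGR5). In OE against vtc2, where 1 was called, it was 0 without a filter, after rescaling to TPM, with only the groups compared and without the trend, and 4 with library weights. In vtc2 against vtc4 it was 2 with library weights instead of 0. Leaving out 1 library gave 0 to 3, 0 to 2 and 0 to 1 called members in these comparisons. In vtc4 and OE against WT it stayed at 0 under all 24 alternatives. PSBS was called against WT in 7 of the 24, PGR5 in 11, and VDE1 in OE against vtc2 in 11, and the sign of these 3 values was the same in all of them. The cause of these shifts was not tested. The fits with only the groups compared also hold fewer libraries.

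Counts over all genes moved too. In vtc2 against WT 523 genes became 13 with only the groups compared, 331 without the trend, 821 with library weights and 79 to 727 with 1 library left out. In OE against vtc2 888 became 93 with only the groups compared, 2913 with library weights and 125 to 1314 with 1 library left out. In vtc2 against vtc4 236 became 13, 148, 1196 and 7 to 728, and 136 without a filter. In vtc4 against WT 6 became 19 with only the groups compared, 10 with library weights and 6 to 12 with 1 library left out. In OE against WT 3 became 7 with only the groups compared, 5 with library weights and with robust moderation, and 3 to 20 with 1 library left out.

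With the replicate number as a block, 1 member (ELIP2, limma adjusted p = 0.0479) was called in vtc2 against vtc4. In vtc2 against WT the block gave 2, ELIP2 (adjusted p = 0.0280) in place of PSBS (0.0633). Residuals of same-numbered libraries correlated from -0.17 to 0.20, over 0.1 in 6 of 18 pairs. Those of libraries with different numbers correlated from -0.35 to 0.32, over 0.1 in 9 of 36 pairs. Whether the numbers pair the libraries cannot be told from these values.

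Signs turned only for differences that were not called. These were near 0 except for ELIP1, which stood at 0.13 in OE against vtc2 and at -0.14 in OE against WT. For vtc4 against WT, ELIP2 became 0.0045 with TPM, 0.018 with quantile normalization and 0.082 with weights, PSBS 0.018 with quantile normalization and 0.032 with weights, and PGRL1A 0.054 with weights. For OE against WT, LCNP became 0.026 with TPM, 0.00095 with median ratios and 0.0080 with quantile normalization, and with weights PSBS became 0.0013 and PGRL1A 0.023. ZEP became -0.033 with TPM and -0.067 with quantile normalization in OE against vtc2, and 0.016 and 0.027 in vtc2 against vtc4. With 1 library left out, the values crossing 0 for vtc4 against WT ran from -0.20 to 0.16 for ELIP2, -0.12 to 0.061 for PGRL1A, -0.11 to 0.042 for PSBS, -0.039 to 0.066 for LCNP and -0.071 to 0.081 for VDE1. For OE against WT they ran from -0.15 to 0.030 for PGRL1A, -0.041 to 0.11 for VDE1, -0.070 to 0.11 for LCNP and -0.26 to 0.017 for ELIP1. They ran from -7.8e-05 to 0.049 for ZEP and -0.11 to 0.27 for ELIP1 in OE against vtc2, and from -0.013 to 0.040 for PTOX in vtc2 against WT.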
